A study of Mus musculus with 4 samples.

Results

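The genes described here are targets of p53, the transcription factor that answers DNA damage and other stress, in type II alveolar epithelial cells (AEC2) sorted from mouse lungs. The list named 33 genes and was chosen with earlier results of these data known. A gene was measured where a probe set of the array carried its symbol and no other. That held for 30 of the 33, out of 18193 genes in all, and they were read by 62 probe sets. Probe sets were averaged per gene. Trp53 itself, the pro-apoptotic gene Bax and the secreted stress factor gene Gdf15 were not analysed here.

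There were 4 groups of 1 Affymetrix array each: TLR4-/- cells and wild-type cells 4 days after bleomycin, and TLR4-/- cells and wild-type cells from untreated lungs. Bleomycin breaks DNA strands and injures the lung epithelium. TLR4 is a receptor of innate immunity, and the labels limit its loss to no cell type. Each array held amplified RNA from flow-sorted cells that had been pooled from the lungs of 4 to 5 mice. The labels gave no allele, age or sex and no sorting markers. With 1 pool per group no spread within a group was measured, and differences between single arrays are given without a test.

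p53 is kept low by the ubiquitin ligase Mdm2, which is itself one of its targets. After DNA damage p53 accumulates and switches on genes that stop the cell cycle, repair DNA, adjust metabolism or prepare the cell for apoptosis. In lung epithelium p53 activity is also known from the transitional state through which AEC2 pass on their way to type I cells.

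Some facts bear on every result below. The AEC2 gene Sftpc lay between 14.02 and 14.06 (log2 signal) on the 4 arrays. The array maxima were 14.48 to 14.55, so Sftpc lay near the top of the scale, where a change can be compressed. Of 13 measured AEC2 markers limma called 0 after bleomycin, with 1 at an unadjusted p under 0.05. Over all genes 2.06% were called higher and 0.407% lower, so 0 of 13 is near the share of the array. The AEC2 share of the pools was not measured. One of 4 Tlr4 probe sets was lower in TLR4-/- than in wild-type cells under both treatments. It was at 6.39 against 9.07 at day 4 and 7.24 against 8.87 when untreated. The brightest was higher in TLR4-/-, by 0.41 at day 4 and 0.66 untreated, and another by 0.49 and 0.43. The remaining one was dim, between 3.89 and 4.05. Where the probe sets lie relative to the deleted part was not given. Of 15 leukocyte and macrophage markers 9 rose after bleomycin, and their mean log2 signal was 8.48 in TLR4-/- and 8.23 in wild-type cells at day 4, against 7.10 and 6.82 in the untreated TLR4-/- and wild-type cells. The defining leukocyte gene Ptprc was at 7.61, 7.54, 7.41 and 6.69 in the same order, and no marker can be placed at 0 on an array without detection calls. The Y-linked gene Eif2s3y was at 8.87 and 8.85 in TLR4-/- and wild-type pools at day 4, against 6.86 and 6.82 in the untreated TLR4-/- and wild-type pools. The X-linked gene Xist was at 10.04 and 10.79 in TLR4-/- and wild-type pools at day 4, against 11.30 and 11.41 untreated. Both genes differed between treatments in each genotype, so a difference in the sex of the mice cannot be told apart from bleomycin here. The part of other cells, and of the sex of the mice, in the results on p53 targets was not tested.

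Most p53 targets were higher after bleomycin, in both genotypes. limma was fitted over all 18193 genes with genotype and treatment as terms, so that a bleomycin effect is the average over the 2 genotypes. Its error combines how far they disagree for that gene with a variance that limma estimates from all genes by brightness. By this fit 16 of the 30 targets rose and 0 fell, at an adjusted p under 0.05 over all genes. Over the whole array 2.06% of genes rose and 0.407% fell. The median effect was 0.92 (log2) over the 30 targets and -0.02 over all genes. At an unadjusted p under 0.05, 21 targets were higher and 0 lower, against 3276 of all genes in either direction. In bulk pools, more RNA per cell and more cells that hold the RNA cannot be told apart. Both day 4 arrays lay above both untreated arrays for 22 of the 30 targets, against 23.1% of all genes.

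The count changed when an array was left out, in fits that also lacked the genotype term. Without the TLR4-/- or the wild-type day 4 array these fits called 0 targets, and each called only 1 gene higher on the whole array. The effects themselves stayed near their averages for some targets, at 1.56 and 1.54 for Cdkn1a and 2.15 and 2.14 for Ccng1, while their error then came from the difference between the untreated arrays. Dropping the genotype term with all 4 arrays kept, an alternative chosen after seeing the data, gave 8 targets called higher. Without the TLR4-/- untreated array Ptpn14, Sesn2 and Tigar were added, but calls also grew over the whole array in both directions. The median effect over the targets was then 1.03. Without the wild-type untreated array Dcxr, Ei24, Perp, Pmaip1, Trp53inp1 and Zmat3 were no longer called, and the median effect over the targets was 0.84.

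**Figure D1:**
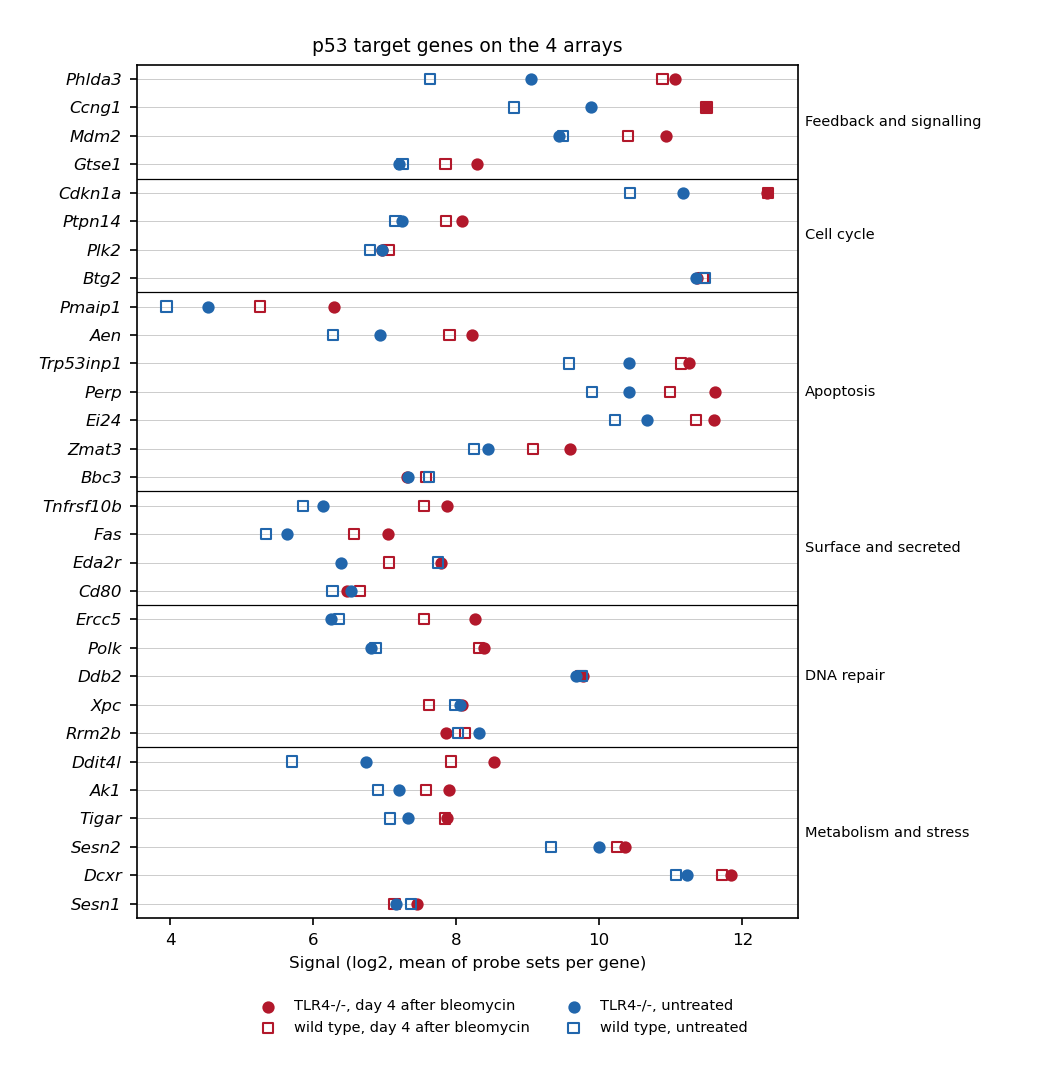
Log2 signal (x axis) of the 30 measured p53 targets (y axis, grouped by role) on the 4 arrays, with red for day 4 after bleomycin, blue for untreated, filled circles for TLR4-/- and open squares for wild type; each point is 1 array. For 22 genes both red points lie right of both blue points, and for 19 the wild-type untreated array is the lowest of the 4.

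Promoters of the genes that moved together were searched for the p53 decamer, the unit that p53 binds in pairs: 3 purines, C, 2 bases that are A or T, G and 3 pyrimidines, which reads alike on both strands. The windows came from RefSeq (GRCm38.p6) and ran from 250 bases before to 50 bases after a start site. A decamer stood in a window of 7 of the 11 targets that rose and had a window in the table, of 2 of the 11 that did not pass, and of 9.55% of all 27025 genes in the table. These genes were listed because they are known as p53 targets, so an excess over all genes is built into the list. The 11 that rose had 14 windows and the 11 that did not pass had 18, and the split was not tested. A pair of decamers with 0 to 13 bases between them stood in the Cdkn1a window and in those of 20 genes in all. Some of the genes that rose are shown by the 100 bases that hold their match, to let the letters be compared, with each decamer in capitals. A match describes the letters and is not evidence of binding, and p53 sites outside these windows were not searched. The window of Phlda3, the gene with the highest effect, held no decamer.
Cdkn1a (chr17:29090872-29090971, + strand, 2 decamers): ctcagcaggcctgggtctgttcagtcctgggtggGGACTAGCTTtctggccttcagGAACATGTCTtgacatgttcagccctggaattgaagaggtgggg
Ccng1 (chr11:40755417-40755516, - strand): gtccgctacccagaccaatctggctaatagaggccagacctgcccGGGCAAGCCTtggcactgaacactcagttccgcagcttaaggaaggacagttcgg
Mdm2 (chr10:117710890-117710989, - strand): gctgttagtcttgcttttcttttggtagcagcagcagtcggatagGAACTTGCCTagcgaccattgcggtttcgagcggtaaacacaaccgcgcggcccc
Ddit4l (chr3:137623537-137623636, + strand): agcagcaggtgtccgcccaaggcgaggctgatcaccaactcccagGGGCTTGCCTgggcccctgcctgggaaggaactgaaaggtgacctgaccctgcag
Polk (chr13:96519338-96519437, - strand): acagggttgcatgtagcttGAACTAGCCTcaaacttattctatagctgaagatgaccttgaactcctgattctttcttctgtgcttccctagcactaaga
Ei24 (chr9:36797335-36797434, - strand): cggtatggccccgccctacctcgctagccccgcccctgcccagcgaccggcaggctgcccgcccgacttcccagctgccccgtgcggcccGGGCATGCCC

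In the Cdkn1a stretch the decamers began 73 and 51 bases before a start site that lies upstream of a second one with no decamer in its window. Allowing 1 mismatch outside the C and G of the core, a pair stood in the windows of 3 targets, Cdkn1a, Ccng1 and Gtse1, and of 0.718% of all genes. The Cdkn1a window then held 2 pairs. The added pair is the decamer at 51 bases and the lower-case bases printed right after it. In the Ccng1 stretch this pair began 195 bases before the start site, just before the decamer printed in capitals. The decamer of Ei24 began 10 bases before the start site and that of Polk 231 bases before it, and a second window of Polk held none.

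Genes of feedback and signalling around p53 held the 2 largest effects. Phlda3, which restrains the kinase Akt, had a log2 signal of 11.06 in TLR4-/- and 10.88 in wild-type cells at day 4, against 9.05 in TLR4-/- and 7.64 in wild-type cells when untreated. Both day 4 arrays were high and nearly equal, and the wild-type untreated array was the lowest. Phlda3 rose by 2.63 ± 0.28 (log2, SE by limma over 2 pairs of arrays, adjusted p = 0.0125), a 6.19-fold average effect. Ccng1, which encodes cyclin G1 and acts on p53 through Mdm2, was at 11.49 and 11.50 in TLR4-/- and wild-type cells at day 4, against 9.88 and 8.81 in the untreated TLR4-/- and wild-type cells. It rose by 2.15 ± 0.25 (limma adjusted p = 0.0149), and its 3 probe sets were each called higher when fitted on their own. Mdm2 was at 10.93 and 10.40 at day 4 in TLR4-/- and wild-type cells, against 9.44 and 9.49 untreated. Here the untreated arrays were alike and the TLR4-/- day 4 array was the highest. Mdm2 rose by 1.20 ± 0.17 (limma adjusted p = 0.0263), which became 0.0515 after centring each array on its median. Gtse1, whose product moves p53 out of the nucleus in human cells, had an effect of 0.85 ± 0.18 that did not pass (limma adjusted p = 0.0712).

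Of the 4 cell cycle genes, 1 rose. Cdkn1a, the cyclin-dependent kinase inhibitor p21, was at 12.35 in TLR4-/- and 12.36 in wild-type cells at day 4, against 11.17 in TLR4-/- and 10.43 in wild-type cells when untreated. The day 4 arrays matched only as an average of 2 probe sets, whose TLR4-/- minus wild-type differences were 0.35 and -0.37. The untreated arrays differed by 0.74. Cdkn1a rose by 1.55 ± 0.18 (limma adjusted p = 0.0153), with 1.93 and 1.17 from its 2 probe sets. Ptpn14, a phosphatase that restrains the growth regulator Yap, was higher by 0.77 ± 0.15 without passing (limma adjusted p = 0.0594). Btg2, an antiproliferative cofactor that is a textbook p53 target, lay between 11.36 and 11.47 on all 4 arrays. Its bleomycin effect was -0.01 ± 0.11. The kinase gene Plk2 differed by 0.14 ± 0.15, and the lower of its 2 probe sets was dim, between 3.79 and 3.90.

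Of the 7 apoptosis genes, 6 rose, and Bbc3 did not pass. Pmaip1, which encodes the BH3-only protein Noxa, was at 6.29 and 5.26 in TLR4-/- and wild-type cells at day 4, against 4.52 and 3.95 untreated. It rose by 1.54 ± 0.14 (limma adjusted p = 0.00838) from a dim signal, for which the size of a fold is uncertain. Bbc3, which encodes Puma, the other classical BH3-only target of p53, was at 7.31 and 7.58 at day 4 in TLR4-/- and wild-type cells, against 7.32 and 7.62 untreated. Its arrays differed by genotype more than by treatment, and its bleomycin effect was -0.03 ± 0.15. Aen, an exonuclease that promotes apoptosis, rose by 1.45 ± 0.16, and 3 of its 4 probe sets were called on their own. Perp, a membrane protein of desmosomes, was at 11.62 and 10.99 in TLR4-/- and wild-type cells at day 4, against 10.42 and 9.89 untreated. It rose by 1.15 ± 0.12 (limma adjusted p = 0.0119), with the TLR4-/- array the higher one under both treatments. Trp53inp1, a stress-induced cofactor of p53, rose by 1.20 ± 0.19, and Ei24, an endoplasmic reticulum protein of autophagy, by 1.03 ± 0.12. Zmat3, an RNA-binding zinc finger protein, rose by 0.99 ± 0.16 (limma adjusted p = 0.0361). The call of Trp53inp1 was lost with the variance trend off, after centring and with its brightest probe set, at limma adjusted p up to 0.0624. Without the wild-type untreated array its effect was 0.78 (limma adjusted p = 0.0521). That of Zmat3 was lost after centring, after quantile normalization and under both other probe set rules, at limma adjusted p up to 0.0611.

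Both death receptor genes rose. Tnfrsf10b, the mouse TRAIL receptor gene, was at 7.87 in TLR4-/- and 7.55 in wild-type cells at day 4, against 6.13 in TLR4-/- and 5.85 in wild-type cells when untreated. It rose by 1.72 ± 0.14 (limma adjusted p = 0.00679), the lowest adjusted p among the 30 targets, and the effects in the genotypes were 1.74 in TLR4-/- and 1.70 in wild type. Fas was at 7.05 and 6.57 at day 4 in TLR4-/- and wild-type cells, against 5.63 and 5.34 untreated, and rose by 1.33 ± 0.13 (limma adjusted p = 0.0107). Eda2r, an X-linked gene for the receptor of ectodysplasin A2, did otherwise. It was at 7.79 and 7.06 in TLR4-/- and wild-type cells at day 4, against 6.38 and 7.75 untreated. The TLR4-/- untreated array was the low one, and the treatments overlapped. Its bleomycin difference was 1.40 in TLR4-/- and -0.69 in wild type, and the average of 0.36 ± 0.44 had the largest standard error of the 30. The costimulatory ligand gene Cd80 lay between 6.27 and 6.66 and differed by 0.17 ± 0.16.

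Repair genes were split. Ercc5, the endonuclease XPG of nucleotide excision repair, was at 8.26 in TLR4-/- and 7.54 in wild-type cells at day 4, against 6.25 in TLR4-/- and 6.36 in wild-type cells when untreated. It rose by 1.60 ± 0.22 (limma adjusted p = 0.0231). Polk, a polymerase that copies past DNA lesions, was at 8.39 and 8.31 at day 4, against 6.80 and 6.87 untreated, in TLR4-/- and wild-type cells each time. It rose by 1.51 ± 0.15 (limma adjusted p = 0.00985), and the genotypes were within 0.08 of each other under both treatments. The other repair genes did not pass. Ddb2 and Xpc, which recognise bulky lesions at the start of nucleotide excision repair, differed by 0.05 ± 0.14 and -0.16 ± 0.17. Rrm2b, the p53-inducible subunit of ribonucleotide reductase, differed by -0.18 ± 0.19, and its 4 probe sets ranged from -0.50 to 0.10.

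Among metabolic and stress genes, Ddit4l had the largest effect. Its product inhibits the growth kinase complex mTORC1. Ddit4l was at 8.53 in TLR4-/- and 7.93 in wild-type cells at day 4, against 6.74 in TLR4-/- and 5.70 in wild-type cells when untreated, and the 4 arrays were well apart. It rose by 2.01 ± 0.17 (limma adjusted p = 0.00757), and its 3 probe sets were each called. Dcxr, a reductase of dicarbonyls and xylulose, rose by 0.63 ± 0.10 (limma adjusted p = 0.0386), the smallest effect that passed. That call was lost with the variance trend off (limma adjusted p = 0.0812). Ak1, an adenylate kinase, was higher by 0.69 ± 0.15 and did not pass as an average (limma adjusted p = 0.0745). One Ak1 probe set alone was called at 1.41, while the other stayed between 5.34 and 5.45 on all arrays. Tigar, which lowers glycolytic flux, was higher by 0.65 ± 0.15, and Sesn2, an inhibitor of mTORC1, by 0.64 ± 0.17, and neither passed. The Sesn2 effect was 0.98 without the TLR4-/- untreated array, where it passed (limma adjusted p = 0.0219), and 0.31 without the wild-type one. Its relative Sesn1 differed by 0.03 ± 0.18, with probe sets from -0.32 to 0.39.

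**Figure D2:**
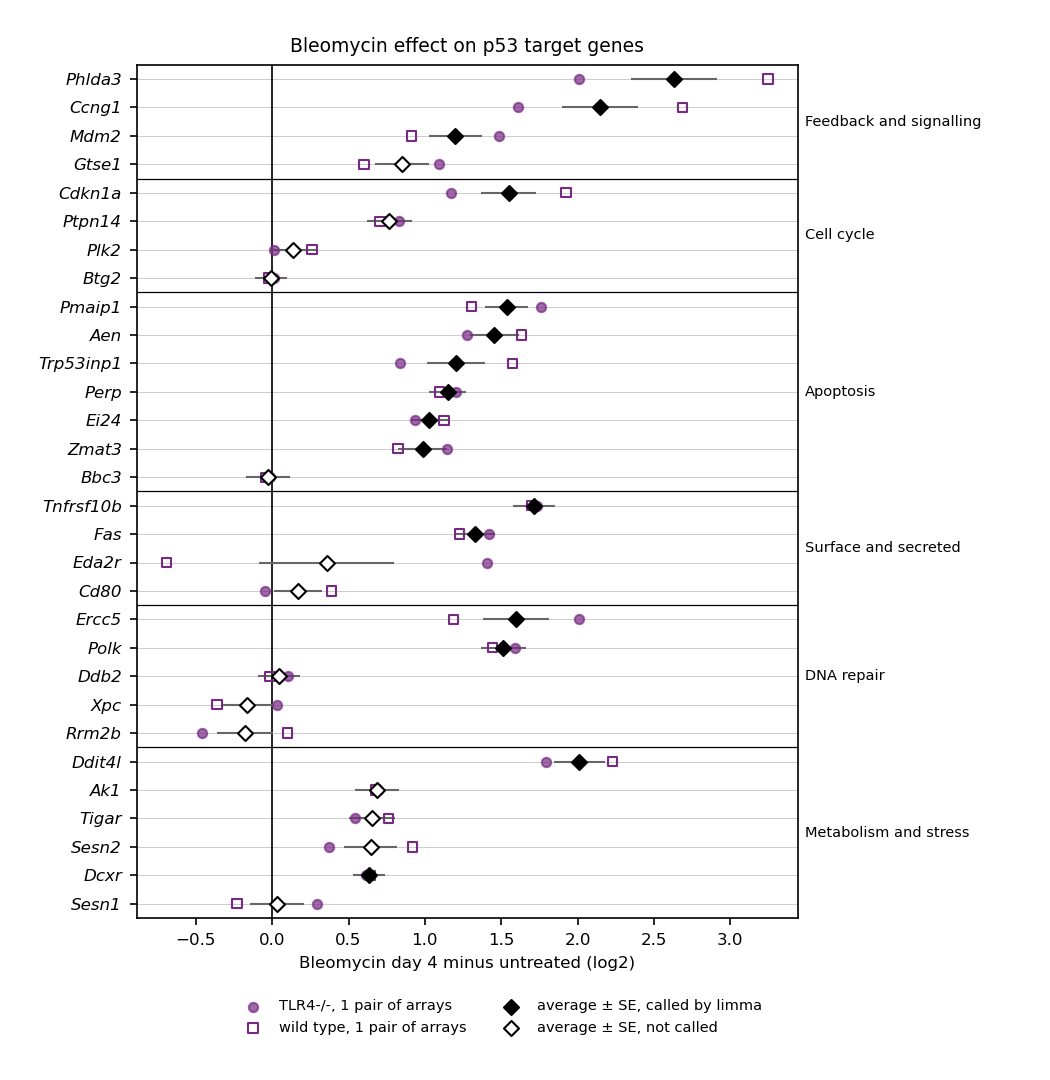
Bleomycin effect (x axis, day 4 minus untreated, log2) of each p53 target (y axis). Circles are TLR4-/- and squares wild type, each 1 pair of arrays; diamonds are limma averages with SE bars, filled where the adjusted p was under 0.05. The 16 filled diamonds lie between 0.63 and 2.63, and Eda2r shows values on either side of 0.

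In TLR4-/- cells 15 of the 30 targets had a day 4 signal at least 2-fold above the untreated one, against 1.88% of all genes, and 0 were 2-fold or more below it, against 0.775%. In wild-type cells 13 were 2-fold or more above, against 1.82% of all genes, and 0 below, against 0.445%. Of these, 11 were shared, which are most of either list. Members called by limma were divided evenly between the genotypes: the bleomycin difference was larger in wild type for 8 of the 16 and larger in TLR4-/- for the other 8. Phlda3 showed the widest gap among the 16, at 2.01 in TLR4-/- and 3.25 in wild type. Ccng1 had 1.61 and 2.69, and Cdkn1a 1.17 and 1.92, for TLR4-/- and wild type in turn. Ercc5 went the other way, at 2.01 in TLR4-/- and 1.19 in wild type, as did Mdm2 at 1.49 and 0.91. By probe set these gaps were uneven, at 1.30 and 0.35 for Ercc5 and 1.24, 0.43 and 0.06 for Mdm2. The Ercc5 probe set with the wider gap was dim when untreated, at 5.04 in TLR4-/- and 5.25 in wild type. The Mdm2 probe set with the widest gap was not called on its own (limma adjusted p = 0.0552). None of these gaps was tested, since the 4 arrays leave no degree of freedom for them.

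Between the genotypes, several p53 targets were higher in TLR4-/- cells without bleomycin. In the untreated arrays 3 targets were at least 2-fold higher in TLR4-/- than in wild type and 1 at least 2-fold lower, against 0.731% and 0.462% of all genes. The 3 were Phlda3 (1.42, log2), Ccng1 (1.07) and Ddit4l (1.04), and the lower one was Eda2r (-1.37). By probe set Ccng1 differed by 0.83, 0.86 and 1.51, and Ddit4l by 0.52, 1.30 and 1.29. With quantile normalization, or with the brightest probe set per gene, 2 targets were at least 2-fold higher. Trp53inp1 was higher by 0.85, Cdkn1a by 0.74, Sesn2 by 0.67 and Aen by 0.67. These values and the bleomycin differences in wild type rest on the same wild-type untreated array. That array was the lowest of the 4 for 19 of the 30 targets, against 30.3% of all genes. Taking limma's estimate of the standard deviation of a difference between 2 arrays, 0.16 to 0.23 (log2) at the brightness of these genes, 16 targets were above it and 2 below its negative, against 25.1% and 18.9% of all genes. That estimate rests on disagreement between genotypes and not on replicate pools. The median difference was 0.25 over the targets and 0.02 over all genes. Markers of other cells differed between the same untreated arrays. The mean log2 signal of 9 club cell markers was 9.98 in TLR4-/- and 11.01 in wild-type cells, with 5 of them at least 2-fold lower in TLR4-/- and 0 higher. That of 7 mesothelial markers was 6.28 in TLR4-/- and 7.10 in wild-type cells, with 2 at least 2-fold lower and 0 higher. Of the 15 leukocyte and macrophage markers 1 was at least 2-fold higher in TLR4-/-, Siglecf by 2.28, and 0 were lower. Among 10 lymphocyte markers 2 were at least 2-fold higher in TLR4-/- and 2 at least 2-fold lower. Among 11 transitional epithelial markers 1 was at least 2-fold higher, Sprr1a by 1.52, and 0 were lower. Among 10 AEC1 markers 1 was at least 2-fold higher, Rtkn2 by 1.06, and 0 were lower. Of 13 AEC2 markers 0 differed by 2-fold. The part of these cells in the genotype differences of the p53 targets was not tested.

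At day 4 the differences between genotypes ran from -0.27 for Bbc3 to 1.03 for Pmaip1, against -1.37 to 1.42 in the untreated arrays. Pmaip1 was the 1 target at least 2-fold higher in TLR4-/- than in wild type, and 0 were at least 2-fold lower, against 0.0989% and 0.0495% of all genes. Eda2r was higher by 0.73, Ercc5 by 0.71, Perp by 0.63 and Ddit4l by 0.60. Cdkn1a and Ccng1, which differed when untreated, were at -0.01 each, where the Cdkn1a value averaged 0.35 and -0.37 from its 2 probe sets. The median over the targets was 0.24, against -0.01 over all genes.

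For genotype across both treatments limma called 0 of the 30 targets, with 0% of all genes called. At an unadjusted p under 0.05, 8 targets were higher in TLR4-/- and 0 lower, among 1296 genes in either direction, and the smallest adjusted p on the array was 0.687. Pmaip1 was higher by 0.80 ± 0.14, Ddit4l by 0.82 ± 0.17 and Perp by 0.58 ± 0.12. These were higher in TLR4-/- under both treatments.

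**Figure D3:**
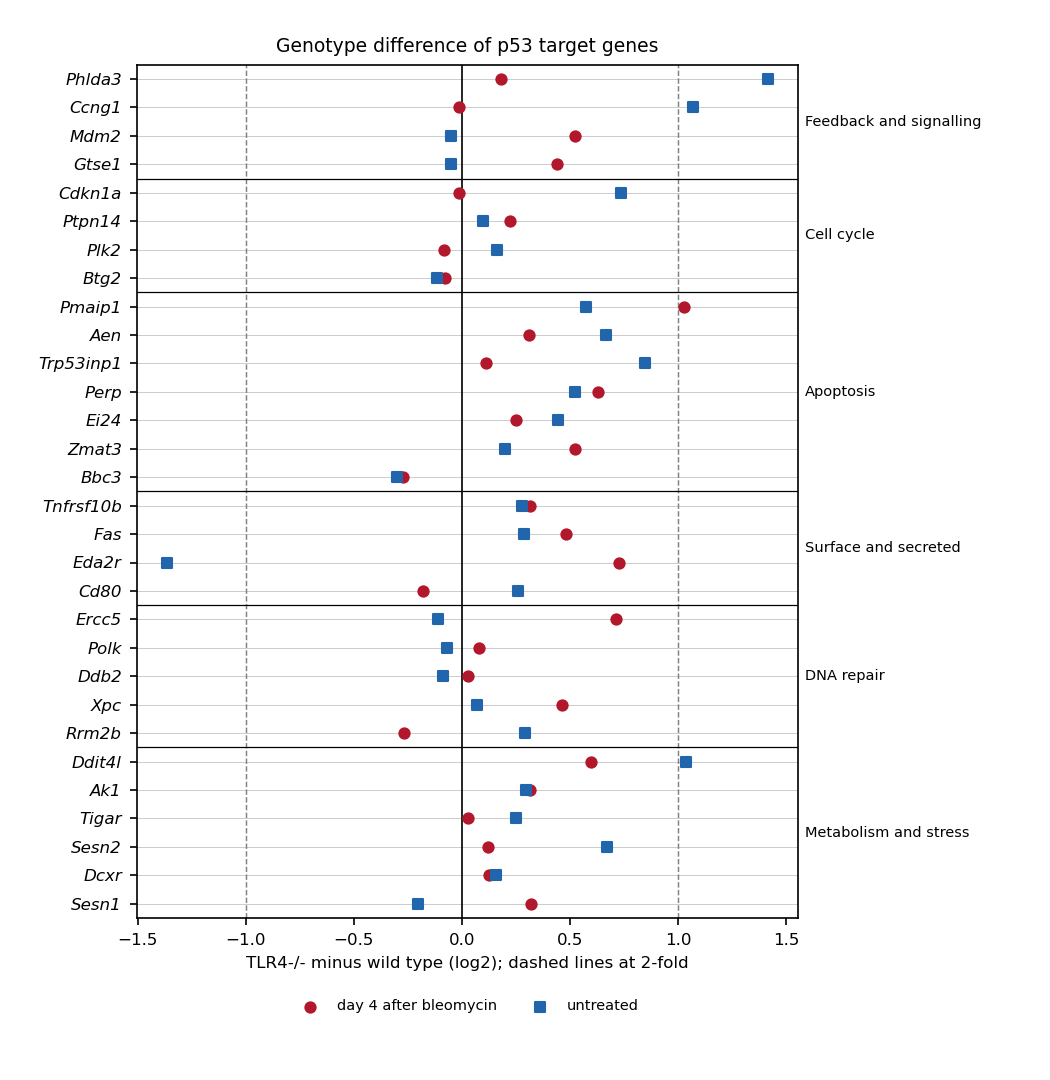
Difference between genotypes (x axis, TLR4-/- minus wild type, log2) of each p53 target (y axis), with red circles for day 4 after bleomycin and blue squares for untreated, each 1 pair of arrays and dashed lines at 2-fold. Phlda3, Ccng1 and Ddit4l lie beyond 2-fold when untreated, Pmaip1 at day 4, and Eda2r lies on either side of 0.

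Other genes of the pathway were followed by lists. For each list here and below, the shares over all genes were 2.06% higher and 0.407% lower. Of 27 genes that regulate p53 or sense DNA damage, 0 rose and 0 fell, which is near those shares. Their median effect was -0.05, and 4 had an unadjusted limma p under 0.05, against 3276 of all 18193 genes. Their largest differences were 0.59 ± 0.18 for the checkpoint kinase gene Chek2 and -0.53 ± 0.15 for the histone gene H2ax. Of 24 further p53 targets 4 rose and 0 fell, with a median of 0.21. They were Ephx1, an epoxide hydrolase, at 1.68 ± 0.15, Zfp365 at 1.62 ± 0.14, the cytokine gene Lif at 1.43 ± 0.15 and Psrc1, a microtubule protein, at 1.37 ± 0.16. Zfp365 was at 7.48 and 6.34 in TLR4-/- and wild-type cells at day 4, against 5.72 and 4.87 untreated.

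Of 24 measured cell cycle genes that p53 is known to lower through p21 and the DREAM repressor complex, 3 rose and 1 fell, with a median of 0.21. Ube2c, a ubiquitin-conjugating enzyme of mitotic exit, rose by 1.24 ± 0.15, Birc5, which encodes survivin, by 1.15 ± 0.15, and Cdca8 by 0.98 ± 0.15. The spindle checkpoint kinase gene Bub1 fell by 1.13 ± 0.14. A list of 18 genes held Atf4 itself and targets of the stress factor it encodes, which also acts on Sesn2. In this list 1 gene rose and 0 fell, with a median of 0.12. The gene that rose was the serine synthesis gene Psat1, at 1.49 ± 0.16. Transitional epithelial markers rose in 5 of 11 with 0 that fell, led by the tight junction gene Cldn4 at 2.49 ± 0.15, Sprr1a at 1.63 ± 0.23 and the galectin gene Lgals3 at 1.52 ± 0.14.

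**Figure D4:**
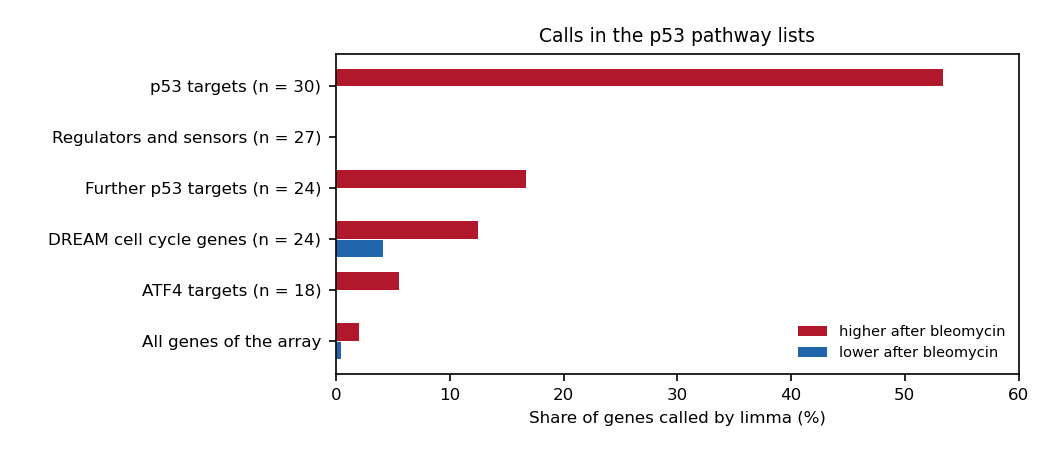
Share of genes (x axis, %) that limma called higher (red) or lower (blue) after bleomycin at an adjusted p under 0.05, for the p53 targets, 4 further lists of the pathway and all genes of the array (y axis). The p53 targets have 16 of 30 higher, and the regulators and sensors show no bar.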

How the data were processed

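Affymetrix signals of 4 pools of sorted mouse AEC2 were used. The values were deposited as log2 signals per probe set, read as log2 from their range (3.07 to 14.55); amplification and biotin labelling were done with kits, per the labels' protocols. Software, normalization and detection calls are not given in the sources used here. Precision is limited by the number of arrays. Of 45101 probe sets, 34945 had 1 gene symbol, 932 several, 9160 none, and 64 were array controls; 34741 were named through RefSeq by Entrez identifier and 204 kept the annotation's name. Probe sets were averaged per gene.

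limma 3.58.1 (R 4.3.3; lmFit, eBayes with trend on, robust off) was fitted to all 18193 genes without a brightness filter, so that dim targets were tested too, with 1 residual degree of freedom and a prior of 5.27; Benjamini-Hochberg adjusted p under 0.05 was called. p-values weigh how far the 2 genotypes' differences disagree for a gene together with the prior variance, which is estimated from all genes by brightness. They do not measure the spread between replicate pools. On simulated data the fit recovered most known changes, but in most runs the share of false calls was above the threshold. Alternatives were a brightness filter, other variance models, normalizations, probe set rules and leaving out each array; a fit to all 4 arrays with treatment alone was added after seeing the data. The members and lists (p53 regulators, further targets, DREAM cell cycle genes, ATF4 targets, and markers of AEC2, AEC1, transitional, leukocyte, neutrophil, lymphocyte, fibroblast, endothelial, mesothelial, club, ciliated and basal cells) were chosen with earlier results of these data known. All targets are given; up to 4 genes of each pathway list were named by size, and up to 3 of the AEC2, transitional and leukocyte lists.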

Additional observations from a re-analysis of the deposited data

Results flagged for a closer look

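For 7 targets the bleomycin difference had opposite signs in the genotypes; with 1 pair of arrays each, none of these differences was tested. Eda2r had 1.40 in TLR4-/- and -0.69 in wild type, a gap of 2.10 (log2), both parts larger than the spread between arrays of 0.22. Sesn1 had 0.29 and -0.23, a gap of 0.52, which also passed that spread on both sides by little. These Sesn1 values average probe sets that disagreed. Only one had opposite signs, at 0.81 in TLR4-/- and -0.29 in wild type. The others had 0.54 and 0.23, -0.12 and -0.52, and -0.05 and -0.34, in the same order. Rrm2b had -0.46 and 0.10 (gap -0.56), Cd80 -0.05 and 0.39 (gap -0.44) and Xpc 0.03 and -0.36 (gap 0.39), with 1 side each within the spread. Ddb2 (gap 0.12) and Btg2 (gap 0.04) had both sides within it.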

How the results depend on the processing

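The alternatives that kept all 4 arrays and both terms left between 12 and 18 targets called higher and 0 called lower. All genes called higher were 757 and lower 288 among genes above the median brightness (log2 7.05), 246 and 49 after centring arrays on their medians, and 48 were lower with trend off. The filter kept 25 of the 30 targets, so that Pmaip1, the 1 target at 2-fold between genotypes at day 4, was not counted (0). With it Gtse1, Ptpn14, Ak1, Tigar and Sesn2 passed too. With each probe set on its own, Ak1 was called and Zmat3 was not. Centring lost Mdm2, Trp53inp1, Zmat3 and Dcxr. Allowing 1 mismatch raised the targets with a paired decamer to 3. Leaving out 1 array gave 0 to 19 targets and 1 to 692 genes higher, and 0 to 289 lower; these fits also lack the second term, so genotype enters their error. With all 4 arrays and treatment alone, a setting added after seeing the data, 8 targets and 173 genes were called higher and 29 lower. Signs turned for uncalled targets: Sesn1 to -0.017 after centring and -0.32 with its brightest probe set, and Ddb2 to -0.011 with quantile normalization and -0.0041 after centring. Without 1 array, Bbc3 ranged from -0.18 to 0.12, Sesn1 from -0.13 to 0.19, Eda2r from -0.33 to 1.04, Btg2 from -0.064 to 0.050 and Xpc from -0.40 to 0.068. The genotype effect stayed at 0 calls in every setting run. The fit with genotype and treatment already compares arrays within each genotype. Beyond it, no paired analysis was possible because each group had 1 array and no further replicate numbers to pair. Without detection calls, folds from dim signals such as those of Pmaip1 and Fas have an uncertain size.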

Other observations

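Markers of other cells moved with treatment in part, where 2.06% of all genes rose and 0.407% fell. Of 15 leukocyte and macrophage markers the 3 highest effects were C1qb at 2.73 ± 0.15, C1qc at 2.32 ± 0.20 and C1qa at 2.22 ± 0.14. After bleomycin 3 of 7 mesothelial, 3 of 9 fibroblast, 3 of 10 AEC1 and 1 of 8 neutrophil markers rose, with 0 that fell in these lists. The mesothelial markers that rose were Msln, Lrrn4 and Krt19, and Krt19 is also counted among the transitional epithelial markers that rose. Of 10 lymphocyte and 10 endothelial markers 1 each fell, Cd3d and Pecam1, and 0 rose. Of 9 club, 8 ciliated and 5 basal markers 0 were called, with 2, 2 and 0 at an unadjusted limma p under 0.05. Cd3d and Pecam1 were named after their values were seen. Of the AEC2 markers the largest differences were -0.29 for Abca3 and -0.27 for Etv5.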
